A study of Mus musculus with 12 samples.

Results

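The 10 genes described here, all of simple epithelia, were followed in mouse embryonic stem cells, chosen by symbol from the 19680 genes of the deposited count table: the keratins Krt8, Krt18 and Krt19, the claudins Cldn3, Cldn4, Cldn6 and Cldn7, the tight junction genes Ocln and Tjp1, and Epcam. All 10 of 10 were found in the table, and 9 had enough counts to be tested. The cells, of the line CJ9, were either labelled arid4b∆ or were wild type (WT). Arid4b is a protein of the SIN3 histone deacetylase complex, and the study addresses its role in lineage commitment. Each genotype was directed for 5 days to endoderm or to mesoderm, and total RNA depleted of ribosomal RNA was sequenced, which gave 4 groups of 3 libraries: arid4b∆ endoderm, WT endoderm, arid4b∆ mesoderm and WT mesoderm. The labels used here state neither the way the deletion was made nor the number of clones. They do not call the 3 libraries of a group separate cultures either: a p-value weighs library spread alone, and that spread could be technical.

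Keratins are the intermediate filament proteins of epithelia. A type II keratin such as Krt8 pairs with a type I partner, Krt18 or Krt19, and these simple keratins are the first to appear in the mouse embryo, in the trophectoderm. Claudins are membrane proteins whose strands seal neighbouring epithelial cells at the tight junction. Occludin (Ocln) is a further membrane protein of that junction, ZO-1 (Tjp1) is the scaffold that ties the strands to actin, and Epcam is an adhesion glycoprotein of embryonic stem cells and epithelia that binds claudin-7. Cells that leave an epithelium to form mesoderm are known to lose junction genes.

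Levels are in CPM, counts scaled to a common library size, after the ribosomal RNA precursor Rn45s, 79.7% to 82.4% of counts, was left out, and 1949299 to 6678893 counts per library remained. A floor of 3 counts corresponded to 0.506 to 1.55 CPM in single libraries. Arid4b itself lay at 46.3 ± 4.29 CPM in arid4b∆ endoderm and 41.1 ± 3.98 CPM in WT endoderm, and at 44.7 ± 2.99 CPM in arid4b∆ mesoderm and 42.1 ± 4.78 CPM in WT mesoderm (SD, n = 3 each). Whole-gene counts cannot check the label, so arid4b∆ below stands for libraries labelled so. The groups were read against 6 endoderm and 6 mesoderm markers. Summed endoderm markers lay at 3.04 to 7.87 CPM in arid4b∆ endoderm, against 149 to 236 CPM in WT endoderm, and summed mesoderm markers at 7.72 to 13.9 CPM in arid4b∆ mesoderm, against 174.9 to 413.6 CPM in WT mesoderm. The arid4b∆ groups are thus named by the direction given and do not carry its markers at the WT level. Between the WT lineages, summed endoderm markers were at 4.50 to 9.30 CPM in WT mesoderm, and summed mesoderm markers at 117 to 144 CPM in WT endoderm. Mesoderm markers thus set the WT lineages apart less sharply than endoderm markers did. WT mesoderm library 1 stood apart, with 174.9 CPM of mesoderm markers against 307 and 413.6 CPM in WT mesoderm libraries 2 and 3, and results that rest on it are given with and without it.

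Krt8 and Krt18 were lower in arid4b∆ cells in both lineages. Cldn3, Cldn4, Cldn6, Cldn7, Ocln, Tjp1 and Epcam were not called different between genotypes in either lineage. A further claudin outside the 10 genes, Cldn12, was called lower in arid4b∆ endoderm (log2 fold change −0.44) but not in mesoderm (−0.43). With edgeR's quasi-likelihood test and an adjusted p (Benjamini-Hochberg) under 0.05, Krt8 and Krt18 were called lower in arid4b∆ in endoderm and in mesoderm, 2 of 9 tested genes each time. Of all 11635 genes tested, endoderm had 12.7% called (5.78% higher, 6.92% lower) and mesoderm 19.1% (8.97% higher, 10.1% lower). The share of the 9 genes, 22.2% in each lineage, is 2 genes in a set of 9 and is read as no result about the set. The median log2 fold change of the 9 genes was −0.014 in endoderm and 0.092 in mesoderm, beside −0.004 and 0.007 over all genes. The measurements come from bulk RNA, in which fewer cells of a type and less RNA per cell cannot be told apart.

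**Figure D1:**
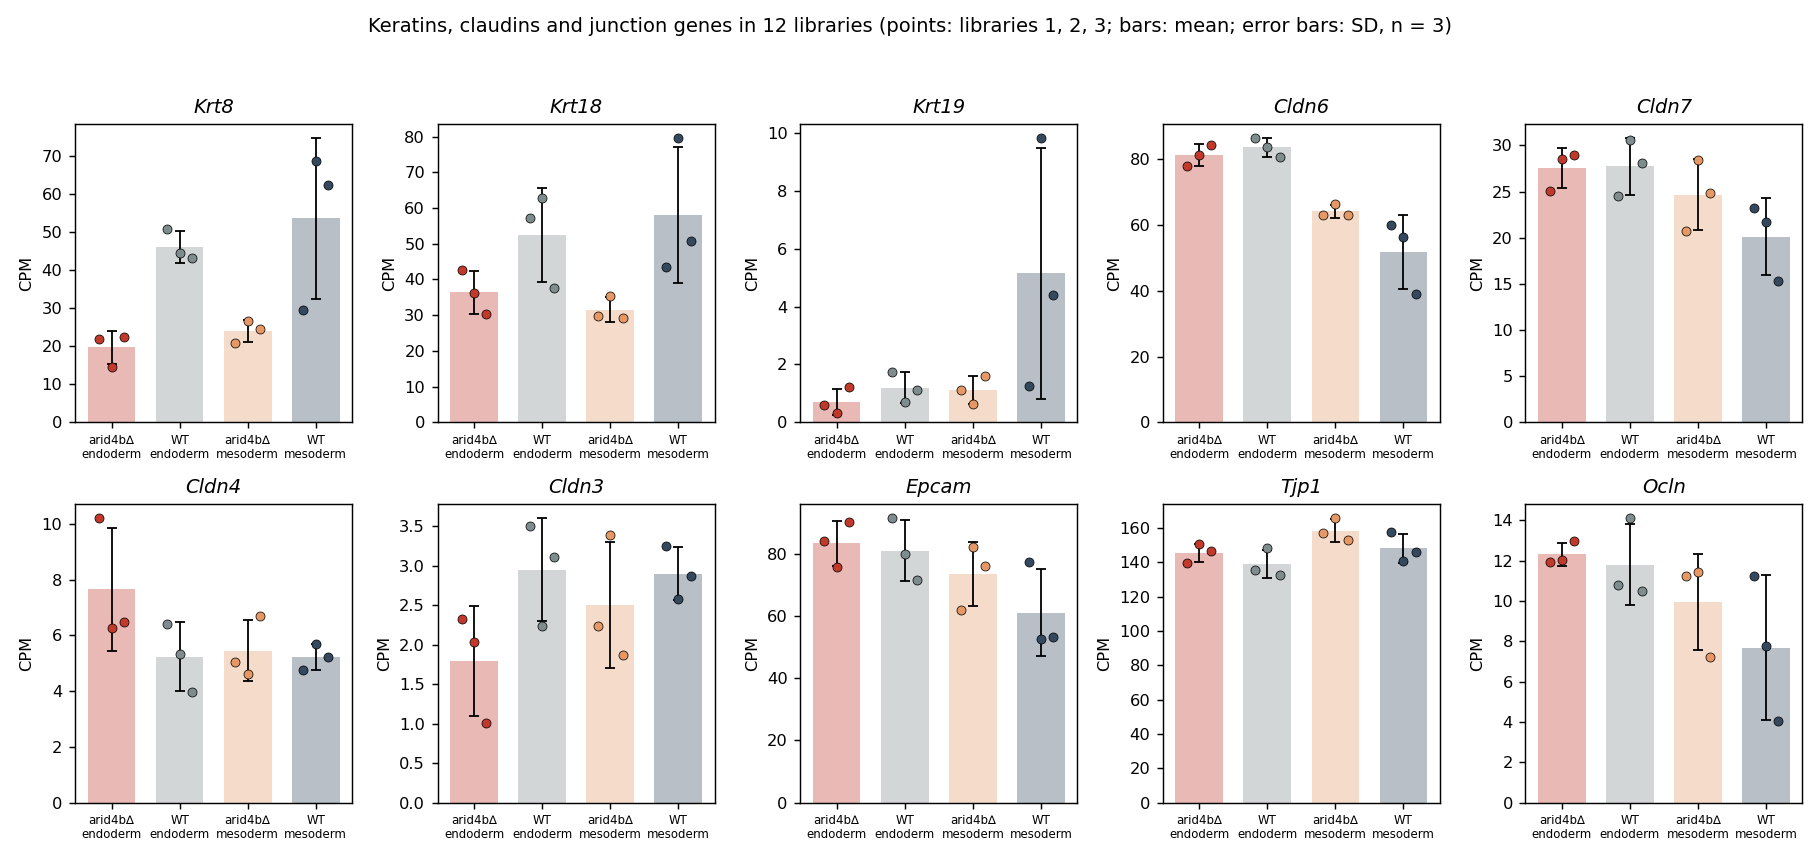
CPM of the 10 genes (vertical axes, each from 0) in arid4b∆ endoderm, WT endoderm, arid4b∆ mesoderm and WT mesoderm; points are libraries 1, 2 and 3, bars the mean and error bars the SD (n = 3). The 3 arid4b∆ points of Krt8 lie below all 3 WT points in both lineages, while the points of Tjp1 stay between 133 and 166 CPM in all 12 libraries.

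Krt8 (chromosome 15, 101996698 to 102004482, minus strand, mm10) stood at 21.9, 14.6 and 22.5 CPM in arid4b∆ endoderm, against 50.8, 44.4 and 43.1 CPM in WT endoderm. It stood at 20.75, 26.5 and 24.6 CPM in arid4b∆ mesoderm, against 29.5, 68.7 and 62.4 CPM in WT mesoderm. All arid4b∆ libraries lay below all WT libraries of their lineage, with WT mesoderm library 1 close above them. Libraries of the groups failed to overlap for 30.2% of all genes in endoderm and 32.8% in mesoderm. The log2 fold change was −1.25 ± 0.22 (SE; 95% interval −1.71 to −0.79; edgeR adjusted p = 0.000463) in endoderm, which is 2.38-fold lower. In mesoderm it was −1.13 ± 0.22 (−1.59 to −0.67; edgeR adjusted p = 0.000951), 2.19-fold lower, and −1.44 without WT mesoderm library 1. Both calls held in all 18 alternatives, with adjusted p of at most 0.00809 in endoderm and 0.0165 in mesoderm.

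Krt18 (chromosome 15, 102028180 to 102032027, plus strand), the partner of Krt8, stood at 42.55, 36.3 and 30.4 CPM in arid4b∆ endoderm, against 57.2, 62.8 and 37.7 CPM in WT endoderm. Here WT endoderm library 3 lay within the arid4b∆ range and the groups overlapped. Its log2 fold change was −0.56 ± 0.18 (SE; edgeR adjusted p = 0.0487), 1.47-fold lower, just past the threshold. That call ended with DESeq2 (adjusted p = 0.0851) and with RLE scaling (0.0511). It also ended without WT endoderm library 1 (edgeR adjusted p = 0.138) or 2 (0.307), arid4b∆ endoderm library 2 (0.127) or 3 (0.202), or arid4b∆ mesoderm library 1 (0.0588), 2 (0.0636) or 3 (0.0560). Over the 18 alternatives the log2 fold change stayed between −0.74 and −0.39, and adjusted p lay between 0.000136 and 0.307.

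In mesoderm the call of Krt18 held in all 18 alternatives, though WT mesoderm was widely spread (58.0 ± 19.1 CPM, SD, n = 3). Groups failed to overlap for 32.8% of all genes in this comparison. Krt18 stood at 29.7, 35.5 and 29.2 CPM in arid4b∆ mesoderm, against 43.5, 79.6 and 50.8 CPM in WT mesoderm, with no overlap. That is a log2 fold change of −0.82 ± 0.20 (SE; edgeR adjusted p = 0.00506), 1.76-fold lower, and adjusted p was at most 0.0268 over the alternatives. The difference between the genotype effects of the lineages (endoderm minus mesoderm) was 0.26 ± 0.27 for Krt18 and −0.12 ± 0.32 for Krt8 on the log2 scale, with edgeR adjusted p = 0.828 and 0.952. Its 95% interval ran from −0.30 to 0.82 for Krt18 and from −0.77 to 0.54 for Krt8, so differences within these ranges are not excluded.

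Krt8 and Krt18 are neighbours on chromosome 15, 23.7 kb apart with 0 coding genes between them, and since both fell, their promoter windows are shown (RefSeq on GRCm38.p6, the assembly of mm10, gene strand, 250 bases before to 50 after the annotated start). Capitals mark matches on either strand to TATAAA, known as the core promoter box of that name, and to the E-box of Snail and Zeb factors, which reads CAGGTG.
Krt8, chr15:102004293-102004592, minus strand: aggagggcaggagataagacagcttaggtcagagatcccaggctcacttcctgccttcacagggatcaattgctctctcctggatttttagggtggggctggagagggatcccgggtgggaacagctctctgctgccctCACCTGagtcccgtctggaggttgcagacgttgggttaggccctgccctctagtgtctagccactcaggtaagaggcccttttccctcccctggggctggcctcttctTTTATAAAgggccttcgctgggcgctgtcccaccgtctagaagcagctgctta
Krt18, chr15:102027966-102028265, plus strand: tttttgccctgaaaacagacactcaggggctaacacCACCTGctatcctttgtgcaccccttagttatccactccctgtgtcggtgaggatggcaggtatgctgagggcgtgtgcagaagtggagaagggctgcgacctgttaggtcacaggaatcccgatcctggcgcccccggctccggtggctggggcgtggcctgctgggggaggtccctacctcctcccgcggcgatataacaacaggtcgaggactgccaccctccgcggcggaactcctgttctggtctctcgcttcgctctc
The Krt8 window holds TATAAA on both strands in overlapping matches at −3 and −1 from the annotated start, and an E-box at −111. The Krt18 window holds an E-box at −214 and no TATAAA. Of the 9 genes with a window, 8 hold an E-box in at least 1 window: these 2 and Cldn3, Cldn4, Cldn6, Cldn7, Epcam and Ocln. Cldn7 and Ocln have 2 windows each, and window 1 of Cldn7 holds no E-box. Counted per window rather than per gene, 13.6% of 32851 promoter windows of 300 bases hold TATAAA and 20.2% the E-box. A match describes the letters of the window and not a bound site. Krt8 overlaps the lincRNA gene Gm36026 on the opposite strand and has 1 named pseudogene in the annotation, and the strand setting of the counting is not known here.

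Krt19 (chromosome 11, 100140810 to 100148665, minus strand), a type I keratin that can also pair with Krt8, was rare and did not pass the filter on low counts. It held 2, 2 and 6 counts in arid4b∆ endoderm and 6, 4 and 4 counts in WT endoderm, so both groups lay near the floor. In arid4b∆ mesoderm it held 4, 2 and 6 counts, against 5, 19 and 26 counts in WT mesoderm. Libraries 2 and 3 of WT mesoderm set this group apart from the others, while library 1 lay within the range of the arid4b∆ libraries. Summed over libraries, Krt19 had 12 counts in arid4b∆ mesoderm and 50 in WT mesoderm, a ratio of 0.270 after scaling (exact 95% binomial interval 0.131 to 0.514, counting error only). Without WT mesoderm library 1 the ratio was 0.199. When no filter was applied, edgeR called Krt19 lower in arid4b∆ mesoderm (adjusted p = 0.0019) and did not call it in endoderm (adjusted p = 0.680). That fit gave far smaller adjusted p for Krt8, 9.28e-18 in endoderm and 3.84e-14 in mesoderm, against 0.000463 and 0.000951 with the filter. Calls made only without the filter are therefore given no weight, here and below.

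The ratio of Krt8 to Krt18, both per kilobase of exon, averaged 0.405 ± 0.126 in arid4b∆ endoderm and 0.670 ± 0.161 in WT endoderm. It averaged 0.560 ± 0.0544 in arid4b∆ mesoderm and 0.678 ± 0.206 in WT mesoderm (SD, n = 3 each). Single libraries ranged from 0.295 to 0.543 in arid4b∆ endoderm and from 0.519 to 0.839 in WT endoderm, so the groups overlapped. Library 3 held the highest ratio in each group. By library number, arid4b∆ endoderm stood at 0.377, 0.295 and 0.543, below WT endoderm at 0.652, 0.519 and 0.839. In mesoderm library 1 went the other way, with 0.512 in arid4b∆ against 0.498 in WT. Per kilobase, Krt18 was thus the more abundant of the pair in every library. The change of the ratio itself was not tested.

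None of the 4 claudins was called between genotypes with all 12 libraries in edgeR (at an unadjusted p under 0.05, 0 in endoderm and 1 in mesoderm; 0 with DESeq2). Cldn6 (chromosome 17, 23679249 to 23682446, plus strand), a claudin of early embryonic epithelia, stood at 77.8, 81.35 and 84.4 CPM in arid4b∆ endoderm, against 86.4, 83.6 and 80.8 CPM in WT endoderm. In mesoderm it stood at 63.1, 66.35 and 62.9 CPM in arid4b∆, against 60.0, 56.3 and 39.0 CPM in WT. The endoderm groups overlapped, and in mesoderm the arid4b∆ libraries lay above all WT libraries by a small margin. For Cldn6 the log2 fold change was −0.04 ± 0.11 (SE; 95% interval −0.27 to 0.19) in endoderm and 0.34 ± 0.13 (0.08 to 0.60) in mesoderm, with edgeR adjusted p = 0.882 and 0.0617. The mesoderm difference was called with the replicate number as a block (edgeR adjusted p = 0.0393). It was also called without WT mesoderm library 1 (log2 fold change 0.51, adjusted p = 0.00648), and it was 0.13 (adjusted p = 0.476) without WT mesoderm library 3. The fit without the filter, given no weight, called it as well (edgeR adjusted p = 0.0327).

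Cldn7 (chromosome 11, 69964779 to 69967885, plus strand), the claudin that Epcam binds, was the second most abundant of the 4 claudins followed here. It stood at 25.1, 28.5 and 29.0 CPM in arid4b∆ endoderm, against 24.5, 30.6 and 28.1 CPM in WT endoderm. In mesoderm it stood at 20.75, 28.4 and 24.9 CPM in arid4b∆, against 23.3, 21.7 and 15.4 CPM in WT. The groups overlapped in both lineages, and the log2 fold change was −0.01 ± 0.15 in endoderm and 0.34 ± 0.17 in mesoderm (SE; edgeR adjusted p = 0.973 and 0.177). The mesoderm value was 0.51 without WT mesoderm library 1 (edgeR adjusted p = 0.0520) and 0.12 without WT mesoderm library 3 (adjusted p = 0.719). Cldn3 and Cldn4, both known as receptors of a clostridial enterotoxin, lie 39.3 kb apart on chromosome 5 (134986214 to 134987472, plus strand, and 134945119 to 134946934, minus strand).

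Both of these claudins were low. Cldn4 averaged 7.66 ± 2.20 CPM in arid4b∆ endoderm and 5.24 ± 1.23 CPM in WT endoderm, and 5.46 ± 1.09 CPM in arid4b∆ mesoderm and 5.22 ± 0.466 CPM in WT mesoderm (SD, n = 3 each). The groups overlapped in both lineages; the log2 fold change of Cldn4 was 0.50 ± 0.26 in endoderm (95% interval −0.03 to 1.04; edgeR adjusted p = 0.229) and 0.09 ± 0.29 in mesoderm (adjusted p = 0.873). Cldn3 averaged 1.80 ± 0.692 CPM in arid4b∆ endoderm and 2.95 ± 0.649 CPM in WT endoderm, and 2.50 ± 0.794 CPM in arid4b∆ mesoderm and 2.90 ± 0.335 CPM in WT mesoderm. It held 25 to 36 counts per group, and its interval in endoderm (log2 fold change −0.69 ± 0.39, −1.51 to 0.13; edgeR adjusted p = 0.290) reaches down to 0.351 times the WT level. Cldn3 also overlaps the antisense gene Wbscr25, so reads of the pair may be shared.

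**Figure D2:**
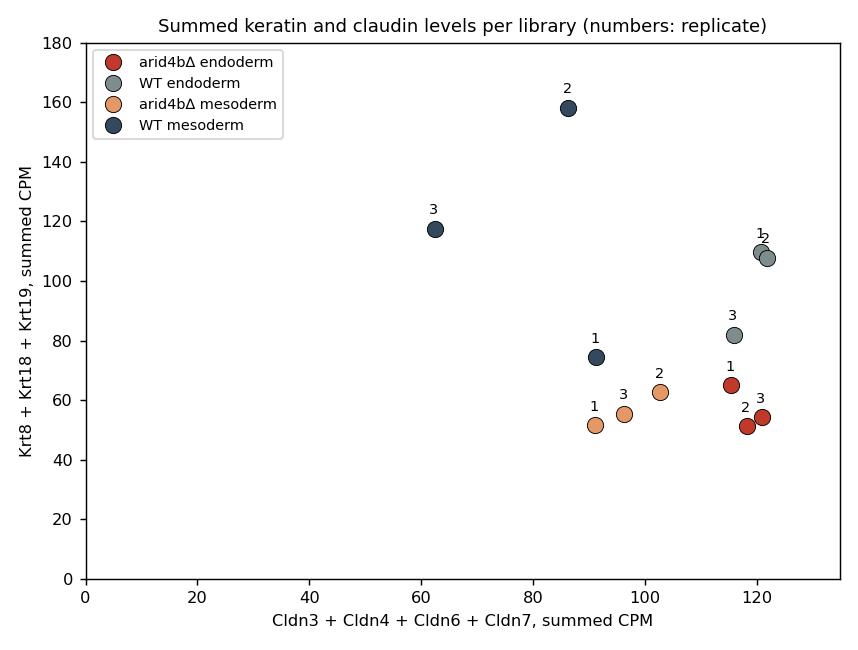
Each point is 1 of the 12 libraries, with the summed CPM of the 4 claudins on the horizontal axis and the summed CPM of the 3 keratins on the vertical axis; colours are the 4 groups and numbers the replicate. The 6 arid4b∆ libraries lie between 51.3 and 65.0 CPM of keratins, below all 6 WT libraries at 74.3 to 158.1 CPM, while in endoderm the claudin sums of both genotypes lie between 115 and 122 CPM.

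The contrast shows in the sums, which were formed with these values known and are given without a test. Summed claudins were 115 to 121 CPM in arid4b∆ endoderm and 116 to 122 CPM in WT endoderm, and 91.1 to 102.8 CPM in arid4b∆ mesoderm and 62.4 to 91.3 CPM in WT mesoderm. Summed keratins were 51.3 to 65.0 CPM in arid4b∆ endoderm and 81.9 to 109.7 CPM in WT endoderm. In mesoderm they were 51.6 to 62.7 CPM in arid4b∆ and 74.3 to 158.1 CPM in WT, with WT library 1 at the low end.

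Tjp1 (chromosome 7, 65296165 to 65527781, minus strand), the ZO-1 scaffold, ranged from 132.9 to 165.7 CPM over the 12 libraries. It averaged 145.5 ± 5.50 CPM in arid4b∆ endoderm and 139 ± 8.27 CPM in WT endoderm, and 159 ± 6.48 CPM in arid4b∆ mesoderm and 148 ± 8.45 CPM in WT mesoderm (SD, n = 3 each). The groups overlapped in both lineages, and the log2 fold change was 0.06 ± 0.09 in endoderm and 0.09 ± 0.09 in mesoderm (SE; edgeR adjusted p = 0.713 and 0.524). The 95% intervals, −0.12 to 0.25 and −0.09 to 0.28, reach a 1.19-fold and a 1.21-fold higher level in arid4b∆.

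Ocln (chromosome 13, 100496507 to 100552718, minus strand) was read less precisely. It stood at 11.95, 12.1 and 13.0 CPM in arid4b∆ endoderm, against 10.8, 14.1 and 10.5 CPM in WT endoderm, and at 11.2, 11.4 and 7.23 CPM in arid4b∆ mesoderm, against 11.3, 7.75 and 4.05 CPM in WT mesoderm. Both pairs of groups overlapped, and WT mesoderm was spread over its whole range. The log2 fold change was 0.04 ± 0.24 in endoderm and 0.44 ± 0.29 in mesoderm (SE; edgeR adjusted p = 0.952 and 0.333). In mesoderm it was 0.95 without WT mesoderm library 1 (adjusted p = 0.0241) and −0.01 without WT mesoderm library 3 (adjusted p = 0.992), so its size there rests on single libraries.

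Epcam (chromosome 17, 87635979 to 87651129, plus strand) stood at 83.9, 75.7 and 90.3 CPM in arid4b∆ endoderm, against 91.35, 79.8 and 71.7 CPM in WT endoderm. In mesoderm it stood at 62.0, 82.1 and 76.0 CPM in arid4b∆, against 77.3, 52.7 and 53.2 CPM in WT. The groups overlapped in both lineages, in mesoderm through WT library 1. The log2 fold change was 0.04 ± 0.13 in endoderm (95% interval −0.23 to 0.31; edgeR adjusted p = 0.898) and 0.25 ± 0.14 in mesoderm (−0.04 to 0.55; adjusted p = 0.236). Without WT mesoderm library 1 the mesoderm value was 0.47 and was called (adjusted p = 0.0147), and without WT mesoderm library 3 it was 0.13 (adjusted p = 0.664).

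**Figure D3:**
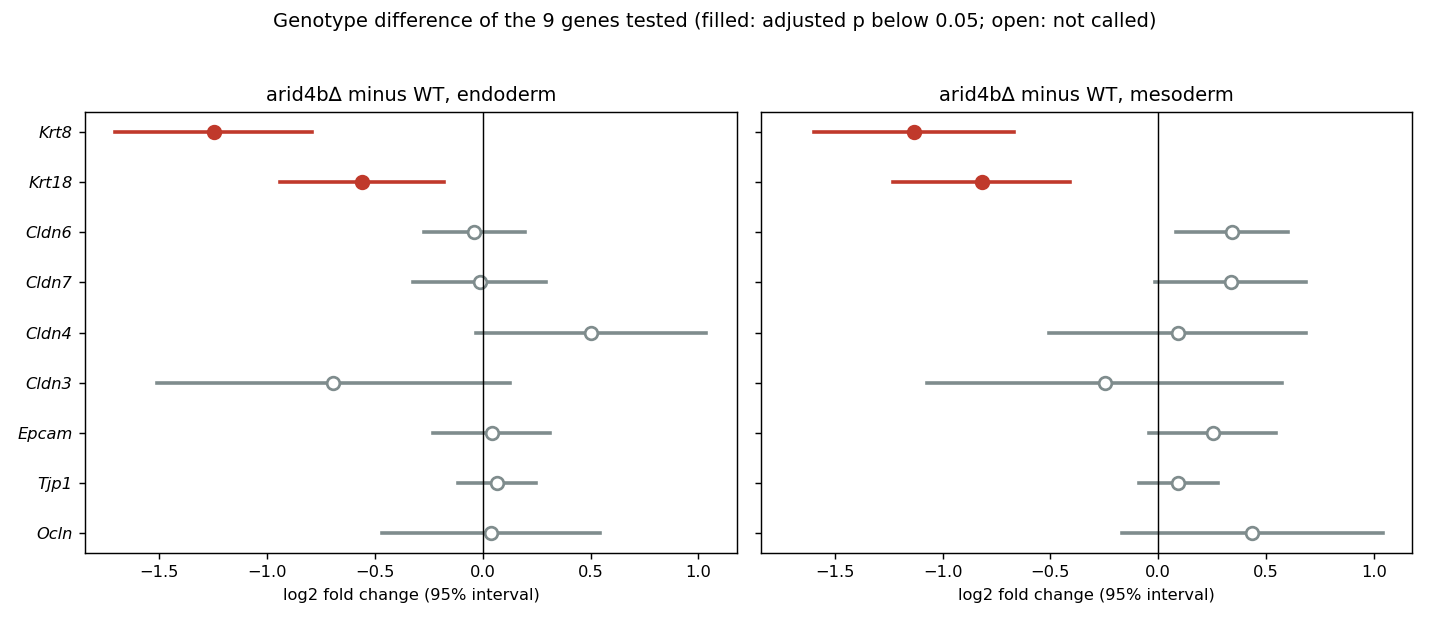
Log2 fold change of arid4b∆ over WT (horizontal axis, with the 95% interval as a line) for the 9 genes tested, in endoderm (left) and mesoderm (right); filled points passed an adjusted p of 0.05. Krt8 and Krt18 lie left of 0 in both panels, and the 7 other genes are open points.

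Among fits that left out 1 library, the count called in mesoderm moved most without WT mesoderm library 1. Without it, 5 of the 9 genes were called in arid4b∆ against WT mesoderm: Krt8 and Krt18 lower, and Cldn6, Ocln and Epcam higher. With all 12 libraries it was 2, as it was without any other single library. Krt19 also entered this and other fits that left out a library and was called lower there, but it reached the filter through WT mesoderm libraries 2 and 3, where it is high, so that call is given no weight. In that library Krt8 stood at 29.5 CPM, against 68.7 and 62.4 CPM in WT mesoderm libraries 2 and 3, and Epcam at 77.3 CPM, against 52.7 and 53.2 CPM. Markers of mesoderm were lowest there too, as given above, and their part in these values was not tested. In mesoderm the calls of Krt8 and Krt18 thus stood with and without it, and those of Cldn6, Ocln and Epcam stood only without it among the fits that left out a library.

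For none of the 9 genes was the genotype effect called different between lineages by edgeR. Over all genes, 1.4% were called in that interaction test. At an unadjusted p under 0.05, 1 of the 9 genes passed, Cldn6, with a difference of −0.38 ± 0.17 (endoderm minus mesoderm, log2; edgeR adjusted p = 0.414), and DESeq2 called 0.

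Between lineages, Cldn6 and Cldn7 were higher in endoderm than in mesoderm in WT cells. In this comparison, 2 of the 9 genes were called, both higher, with 9.84% of all genes called and 4.41% called higher. The WT endoderm libraries lay above all WT mesoderm libraries for both, and groups failed to overlap for 24.5% of all genes. Cldn6 averaged 83.6 ± 2.82 CPM in WT endoderm and 51.8 ± 11.2 CPM in WT mesoderm (SD, n = 3 each; log2 fold change 0.72 ± 0.12 SE, edgeR adjusted p = 0.000260), 1.65-fold higher. Cldn7 averaged 27.7 ± 3.06 CPM in WT endoderm and 20.1 ± 4.19 CPM in WT mesoderm (0.52 ± 0.16, adjusted p = 0.0429), 1.43-fold higher. The Cldn6 call held in all 18 alternatives, with adjusted p of at most 0.00249, and without WT mesoderm library 1 the count of the 9 genes called was 5 and included Krt8, Epcam and Ocln.

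The call of Cldn7 did not hold as well. It ended with DESeq2 (adjusted p = 0.133), with only the WT libraries in the fit (edgeR adjusted p = 0.0631), and without WT endoderm library 2 (0.223) or 3 (0.105), WT mesoderm library 2 (0.0533) or 3 (0.367), arid4b∆ endoderm library 2 (0.0553) or 3 (0.0548), or arid4b∆ mesoderm library 3 (0.0506). Over its 18 alternatives the lowest adjusted p was 0.00935. Epcam (log2 fold change 0.39 ± 0.14, edgeR adjusted p = 0.0806) and Ocln (0.72 ± 0.28, adjusted p = 0.114) missed the threshold. Without WT mesoderm library 1 both were called, Epcam at 0.61 (edgeR adjusted p = 0.00233) and Ocln at 1.24 (adjusted p = 0.0038). Without WT mesoderm library 3 Epcam stood at 0.26 (edgeR adjusted p = 0.392) and Ocln at 0.27 (adjusted p = 0.664). Epcam was also called with the replicate block (edgeR adjusted p = 0.0394). The fit without the filter, given no weight, called Epcam (edgeR adjusted p = 0.00573) and Ocln (0.0202).

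Keratins were not higher in endoderm in WT cells. Krt8 differed by −0.19 ± 0.20 and Krt18 by −0.06 ± 0.18 (log2, endoderm minus mesoderm; edgeR adjusted p = 0.658 and 0.912). Without WT mesoderm library 1, Krt8 was called lower in WT endoderm (−0.49, adjusted p = 0.0195), and without WT mesoderm library 3 its difference was 0.02 (adjusted p = 0.988). Krt19 held 14 counts in WT endoderm and 50 in WT mesoderm, a scaled ratio of 0.260 (exact 95% binomial interval 0.133 to 0.478, counting error only). For Krt19, edgeR without the filter, a fit given no weight, gave adjusted p = 0.00156. Cldn3, Cldn4 and Tjp1 differed by −0.04, 0.02 and −0.09 on the log2 scale and were not called (adjusted p of at least 0.609).

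In arid4b∆ cells, edgeR called 0 of the 9 genes between arid4b∆ endoderm and arid4b∆ mesoderm, DESeq2 called 0, and 1 passed an unadjusted p under 0.05, while 1.85% of all genes were called. That gene was Cldn6, at 81.2 ± 3.29 CPM in arid4b∆ endoderm and 64.1 ± 1.95 CPM in arid4b∆ mesoderm (log2 fold change 0.34 ± 0.12 SE, edgeR adjusted p = 0.162). The groups did not overlap for Cldn6, for Ocln (higher in arid4b∆ endoderm) or for Tjp1 (lower), as for 18.2% of all genes. Cldn6 was called without WT mesoderm library 3 (adjusted p = 0.0326). Whether the lineage difference of Cldn6 differs between genotypes is the interaction above, which was not called.

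Levels between genes were compared per kilobase of exon. In arid4b∆ endoderm Cldn6 was highest at 47.2 ± 1.91 CPM per kilobase, before Epcam at 38.0 ± 3.32, Krt18 at 25.4 ± 4.22, Tjp1 at 18.6 ± 0.704, Cldn7 at 14.1 ± 1.11 and Krt8 at 10.04 ± 2.24 CPM per kilobase (SD, n = 3). In WT endoderm Cldn6 also led, at 48.6 ± 1.64, before Epcam at 36.9 ± 4.50, Krt18 at 36.6 ± 9.17, Krt8 at 23.5 ± 2.11, Tjp1 at 17.8 ± 1.06 and Cldn7 at 14.2 ± 1.57 CPM per kilobase. Krt8 thus took rank 6 in arid4b∆ endoderm and rank 4 in WT endoderm. Epcam and Krt18 in WT endoderm did not differ beyond their spread.

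In mesoderm the order of levels turned on the keratins as well. Cldn6 led arid4b∆ mesoderm at 37.3 ± 1.13 CPM per kilobase, with Epcam at 33.4 ± 4.70, Krt18 at 21.9 ± 2.44, Tjp1 at 20.3 ± 0.830, Cldn7 at 12.7 ± 1.96 and Krt8 at 12.2 ± 1.51. In WT mesoderm Krt18 came first at 40.3 ± 13.3 CPM per kilobase, with Cldn6 at 30.1 ± 6.53, Epcam at 27.8 ± 6.41, Krt8 at 27.4 ± 10.8, Tjp1 at 19.0 ± 1.08 and Cldn7 at 10.3 ± 2.15. Within WT mesoderm neighbours in this order, from Krt18 down to Tjp1, did not differ beyond their spread. Nor did Cldn6 and Epcam, Krt18 and Tjp1, or Cldn7 and Krt8 in arid4b∆ mesoderm. Cldn4, Ocln, Cldn3 and Krt19 lay at 0.385 to 4.22 CPM per kilobase in all 4 groups.

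Cldn6, the gene with the highest level per kilobase in 3 of the 4 groups, has the following promoter window (RefSeq, GRCm38.p6, same length), in which capitals mark the same E-box and, on either strand, the GC box of Sp factors, which reads GGGCGG.
Cldn6, chr17:23679115-23679414, plus strand: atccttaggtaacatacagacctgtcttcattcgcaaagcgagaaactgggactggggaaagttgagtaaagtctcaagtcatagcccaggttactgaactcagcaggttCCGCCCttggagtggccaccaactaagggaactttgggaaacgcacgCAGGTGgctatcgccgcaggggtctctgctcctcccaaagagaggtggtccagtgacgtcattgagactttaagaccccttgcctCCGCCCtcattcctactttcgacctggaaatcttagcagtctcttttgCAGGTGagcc
E-boxes start at −93 and 41 and GC boxes at −140 and −8 from the annotated start. GC boxes stand in 35.7% of all promoter windows and E-boxes in 20.2%. Among the 9 of the 10 genes with a window in the table, the AP-1 motif TGANTCA, which 7.81% of windows hold, was found in that of Cldn4 alone, at −240 and −158, and TATAAA in that of Krt8 alone.

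The genes whose pattern over the 12 libraries lay closest were sought among 9241 genes with a mean of at least 5 CPM, by the root mean square (RMS) difference in log2 CPM after centring each gene. Closest to Krt8 were Gnai1 (0.183) and Pcmtd2 (0.267), with a median over genes of 0.699, and closest to Krt18 were Ak1 (0.205) and Rcan1 (0.210). Krt8 and Krt18 lay 0.416 apart, beside a median over genes of 0.489 for Krt18. Genes picked as the closest of 9241 almost have to lie nearer than a partner named beforehand, so nothing is read from that order. Cldn6 lay nearest to Hk2 (0.125), and 0.154 from Cldn7, and Cldn7 and Epcam shared Arpp19 as the nearest gene (0.109 and 0.127). Ocln lay nearest to Rab25 (0.173), a GTPase of epithelial membrane traffic, and Tjp1 to Eif3a (0.0492). All of these values come from the same 12 libraries and are a description.

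Other genes of epithelial junctions and filaments were taken from lists. Desmosomes are the junctions to which keratin filaments attach, and Dsp, desmoplakin, is their anchor. Dsp averaged 21.0 ± 2.48 CPM in arid4b∆ endoderm and 79.7 ± 1.48 CPM in WT endoderm (SD, n = 3 each; log2 fold change −1.92 ± 0.18 SE, edgeR adjusted p = 1.18e-07), 3.77-fold lower. It averaged 24.1 ± 5.31 CPM in arid4b∆ mesoderm and 107 ± 31.6 CPM in WT mesoderm (−2.15 ± 0.18, adjusted p = 5.20e-08), 4.44-fold lower, with no overlap in either lineage. Dsp thus fell by more than Krt8 and Krt18 did, although the difference between these genes was not tested.

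Of 10 tested desmosome genes, 2 fell and 0 rose in endoderm (20.0%, beside 12.7% of all genes called; median log2 fold change −0.215). In mesoderm 4 fell and 2 rose (60.0%, beside 19.1% of all genes; median −0.225). In endoderm the other was Perp (−0.92 ± 0.20 SE, edgeR adjusted p = 0.00324), a membrane protein of desmosomes. In mesoderm Dsg2 (−0.88 ± 0.19, edgeR adjusted p = 0.00173) and Dsc2 (−1.04 ± 0.29, adjusted p = 0.0145), desmosomal cadherins, fell, and Pkp2 (0.53 ± 0.15, adjusted p = 0.0172), a plaque protein, rose. The Dsc2 call ended without WT mesoderm library 3 (edgeR adjusted p = 0.222) or arid4b∆ mesoderm library 3 (0.0945). The Pkp2 call ended with DESeq2 (adjusted p = 0.0541) and without WT mesoderm library 1 (edgeR adjusted p = 0.0700) or arid4b∆ mesoderm library 1 (0.0594) or 2 (0.0872). The count in mesoderm was 3 rather than 6 with DESeq2, and without WT mesoderm library 3 or arid4b∆ mesoderm library 2, and in endoderm it was 4 with only the 2 endoderm groups in the fit.

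Of 25 other tight junction genes tested, 4 fell and 2 rose in each lineage, 24.0% beside 12.7% of all genes in endoderm and 19.1% in mesoderm (median log2 fold change 0.19 in endoderm and −0.047 in mesoderm). Amot, an angiomotin that restrains Yap at junctions, averaged 78.4 ± 6.05 CPM in arid4b∆ endoderm and 428 ± 76.2 CPM in WT endoderm (SD, n = 3 each; −2.45 ± 0.20 SE, edgeR adjusted p = 9.29e-09), and its log2 fold change in mesoderm was −0.91 ± 0.19 (adjusted p = 0.00169). Without WT mesoderm library 3 the mesoderm value was −0.53. Mpp5 (Pals1), a polarity scaffold of the Crumbs complex, fell by 0.80 ± 0.13 in endoderm (edgeR adjusted p = 0.000251) and by 0.99 ± 0.14 in mesoderm (adjusted p = 3.19e-05). Amotl2, a relative of Amot, fell by 0.70 ± 0.13 in mesoderm (edgeR adjusted p = 0.000517). Cgnl1, paracingulin, rose by 0.70 ± 0.15 in mesoderm (edgeR adjusted p = 0.00183) and by 0.44 ± 0.12 in endoderm (adjusted p = 0.0222).

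Several of these calls in endoderm were close to the threshold. That of Cgnl1 ended with DESeq2 (adjusted p = 0.0689) and without WT endoderm library 1 (edgeR adjusted p = 0.0714) or 3 (0.106) or arid4b∆ endoderm library 2 (0.132) or 3 (0.0552). Inadl (Patj), a partner of Mpp5, fell by 0.33 ± 0.10 (edgeR adjusted p = 0.0425). The Inadl call ended with DESeq2 (adjusted p = 0.148) and in 8 of 12 fits that left out a library, with edgeR adjusted p of 0.122, 0.162 and 0.0512 without WT endoderm library 1, 2 or 3, 0.176 and 0.119 without arid4b∆ endoderm library 2 or 3, 0.0587 without WT mesoderm library 2, and 0.0577 and 0.0601 without arid4b∆ mesoderm library 1 or 2. The count of 6 called genes in endoderm became 2 with DESeq2 and without WT endoderm library 3 or arid4b∆ endoderm library 2. It became 3 without WT endoderm library 1 or 2, arid4b∆ endoderm library 3 or arid4b∆ mesoderm library 2.

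**Figure D4:**
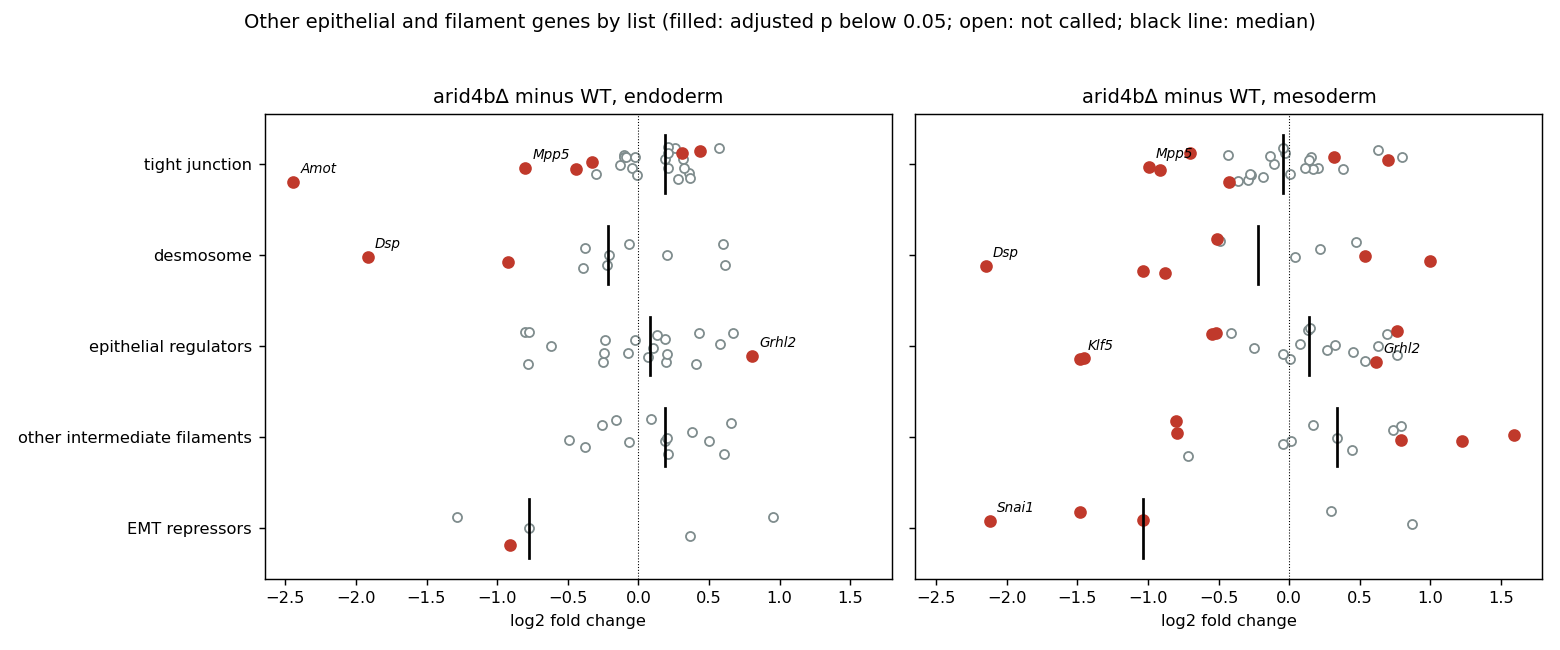
Log2 fold change of arid4b∆ over WT (horizontal axis) for the tested genes of 5 lists (rows), in endoderm (left) and mesoderm (right); filled points passed an adjusted p of 0.05, open points did not, and the black line is the list's median. Dsp lies at −1.92 in endoderm and −2.15 in mesoderm, and Amot at −2.45 in endoderm, while most genes of the tight junction row are open points near 0.

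Of 20 tested regulators of epithelial identity, 1 rose in endoderm, and 2 rose and 4 fell in mesoderm (medians 0.085 and 0.138). That is 5.0% beside 12.7% of all genes in endoderm, and 30.0% beside 19.1% in mesoderm. Grhl2, a grainyhead factor known to activate Epcam and claudin genes, averaged 28.1 ± 5.96 CPM in arid4b∆ endoderm and 15.9 ± 2.91 CPM in WT endoderm (SD, n = 3 each; 0.81 ± 0.18 SE, edgeR adjusted p = 0.00333). In mesoderm Grhl2 rose by 0.615 ± 0.19 (edgeR adjusted p = 0.0266), a call that ended with DESeq2 (adjusted p = 0.0637) and without WT mesoderm library 1 (edgeR adjusted p = 0.0502) or 3 (0.170) or arid4b∆ mesoderm library 1 (0.0580) or 3 (0.106). Klf5 and Elf3, transcription factors of epithelia, fell in mesoderm by 1.48 ± 0.22 and 1.45 ± 0.29 (edgeR adjusted p = 5.41e-05 and 0.00102). Spint1, an inhibitor of membrane serine proteases, fell by 0.52 ± 0.13 (edgeR adjusted p = 0.00697). The count in mesoderm was 3 with DESeq2, and in endoderm it was 2 without arid4b∆ endoderm library 3, 2 with the replicate block and 3 without the filter.

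Factors of the Snail, Zeb and Twist families are known to repress epithelial genes when cells leave an epithelium. Of 5 tested, 1 fell in endoderm and 3 fell in mesoderm (medians −0.778 and −1.037), beside 12.7% and 19.1% of all genes called. Snai3 (log2 fold change 0.96 in endoderm and 0.87 in mesoderm) and Zeb1 (0.37 and 0.30) lay above 0 in both lineages and were not called. Snai1 averaged 2.16 ± 0.631 CPM in arid4b∆ mesoderm and 9.15 ± 2.19 CPM in WT mesoderm (SD, n = 3 each; −2.12 ± 0.40 SE, edgeR adjusted p = 0.000601). Twist1 (−1.48 ± 0.43, edgeR adjusted p = 0.0168) and Zeb2 (−1.04 ± 0.28, adjusted p = 0.0105) fell in mesoderm as well. The Twist1 call ended without WT mesoderm library 1 (edgeR adjusted p = 0.0615) or arid4b∆ mesoderm library 3 (0.101), and that of Zeb2 without arid4b∆ mesoderm library 3 (0.0539), which left 1 call of the 3. In endoderm Zeb2 fell by 0.91 ± 0.29 (edgeR adjusted p = 0.0431). That call ended with DESeq2 (adjusted p = 0.0782) and without WT endoderm library 1 (edgeR adjusted p = 0.05002), 2 (0.204) or 3 (0.0845), arid4b∆ endoderm library 2 (0.0746) or 3 (0.215), or arid4b∆ mesoderm library 2 (0.0532), and without arid4b∆ endoderm library 1 the count was 2.

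Among other intermediate filament genes, edgeR called 0 of 13 in endoderm (3 at an unadjusted p under 0.05, 0 with DESeq2), and 3 rose and 2 fell in mesoderm, 38.5% beside 19.1% of all genes (medians 0.192 and 0.335). Nefh, a neurofilament chain, rose by 1.59 ± 0.37 in mesoderm (log2 ± SE, edgeR adjusted p = 0.00364) and Nefm, its partner, fell by 0.80 ± 0.21 (adjusted p = 0.00848). Vim, the vimentin of mesenchymal cells, averaged 57.8 ± 24.7 CPM in arid4b∆ mesoderm and 99.3 ± 11.5 CPM in WT mesoderm (SD, n = 3 each; −0.80 ± 0.24, edgeR adjusted p = 0.0225). Synm, synemin, rose by 0.79 ± 0.25 (edgeR adjusted p = 0.0309). The Vim call ended with DESeq2 (adjusted p = 0.200) and without WT mesoderm library 3 (edgeR adjusted p = 0.100) or arid4b∆ mesoderm library 2 (0.106) or 3 (0.132), and that of Nefm without arid4b∆ mesoderm library 2 (0.0520). The Synm call ended with DESeq2 (adjusted p = 0.0795) and without WT mesoderm library 2 (edgeR adjusted p = 0.0558) or 3 (0.208) or arid4b∆ mesoderm library 1 (0.0506), 2 (0.0830) or 3 (0.0650).

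The mesoderm count of these filament genes was 2 with DESeq2 and without WT mesoderm library 3 or arid4b∆ mesoderm library 2 or 3, and 3 without WT mesoderm library 2. In endoderm it was 1 without WT mesoderm library 1. Of 33 other keratins listed, 20 were in the table and 1 had enough counts to be tested, which edgeR did not call in either lineage (0 at an unadjusted p under 0.05, 0 with DESeq2). Their summed level was 4.25 to 5.54 CPM in arid4b∆ endoderm and 6.52 to 8.26 CPM in WT endoderm, and 4.49 to 9.10 CPM in arid4b∆ mesoderm and 4.50 to 6.20 CPM in WT mesoderm. These sums lay below the levels of Krt8 and of Krt18 in every group.

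Markers of other cell types were read beside the keratins. Of 4 tested trophoblast markers, 2 fell in arid4b∆ endoderm (Eomes and Tfap2c) and 4 in arid4b∆ mesoderm (with Gata3 and Cdx2). Of all genes, 6.92% and 10.1% were called lower. The 8 trophoblast markers summed to 15.2 to 19.7 CPM in arid4b∆ endoderm and 122 to 138 CPM in WT endoderm, and to 15.1 to 27.0 CPM in arid4b∆ mesoderm and 73.1 to 107 CPM in WT mesoderm. Most of that sum was Eomes, which is also a gene of the primitive streak, and Elf5 held 4 counts in all 12 libraries. Cdx2 held 1 count in arid4b∆ endoderm and 0 in WT endoderm, and 1 in arid4b∆ mesoderm and 196 in WT mesoderm. Squamous markers summed to 9.17 to 14.3 CPM in arid4b∆ endoderm and 12.7 to 16.1 CPM in WT endoderm (0 of 2 tested called by edgeR, 0 at an unadjusted p under 0.05, 0 with DESeq2). In mesoderm they summed to 8.33 to 13.9 CPM in arid4b∆ and 30.5 to 155 CPM in WT, where 1 of 2 was called lower, Sprr2a1, while Krt5, Krt14 and Trp63 held 1, 3 and 5 counts in all. In WT mesoderm the squamous sum was lowest in library 1, at 30.5 CPM, against 98.2 and 155 CPM in libraries 2 and 3, as was the level of Krt8. Most of that sum was 1 gene, Sprr2a1, with 1101 counts in WT mesoderm against 131 of Sfn. The part of these cell types in the keratin values was not tested.

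Fibroblast markers went the other way, summing to 76.3 to 262 CPM in arid4b∆ endoderm and 18.8 to 73.3 CPM in WT endoderm. There 4 of 6 were called higher, beside 5.78% of all genes, a share that was 8.97% in mesoderm. In mesoderm they summed to 88.3 to 209.5 CPM in arid4b∆ and 22.7 to 99.8 CPM in WT, with 1 of 6 called higher and up to 4 when libraries were left out, as without WT mesoderm library 1 or arid4b∆ mesoderm library 3, and 3 without WT endoderm library 1 or arid4b∆ endoderm library 1 or 3. Of 2 tested visceral endoderm markers, edgeR called 0 in either lineage (1 in endoderm and 0 in mesoderm at an unadjusted p under 0.05, 0 with DESeq2 in both), and without WT endoderm library 1, WT mesoderm library 1 or WT mesoderm library 2 the count in endoderm was 1. Their sums were 9.94 to 18.9 CPM in arid4b∆ endoderm and 6.23 to 16.6 CPM in WT endoderm. In mesoderm they were 35.8 to 42.3 CPM in arid4b∆ and 23.8 to 60.0 CPM in WT. Library 1 held the highest fibroblast sum and the highest visceral endoderm sum in each of the 4 groups. For visceral endoderm in arid4b∆ mesoderm that was by little, 42.34 CPM against 42.01 CPM in library 3. These sums thus went with the replicate number, which the main test left unpaired. Of 6 pluripotency markers, 3 rose and 1 fell in endoderm and 2 rose and 1 fell in mesoderm, beside 12.7% and 19.1% of all genes called. The marker that fell in both was Nanog (log2 fold change −1.19 and −0.53). Pluripotency markers summed to 445 to 485 CPM in arid4b∆ endoderm and 382.5 to 437.5 CPM in WT endoderm. In mesoderm they summed to 452 to 472 CPM in arid4b∆ and 309 to 378 CPM in WT. Most of that sum was Pou5f1, which was not called (0.08 in endoderm and 0.18 in mesoderm). Endoderm and mesoderm markers fell in arid4b∆ endoderm, 6 of 6 and 5 of 5 tested, and in arid4b∆ mesoderm, 1 of 6 and 5 of 5. The count of 1 was 2 without WT mesoderm library 1, and 0 without WT mesoderm library 2 or 3, any arid4b∆ mesoderm library, WT endoderm library 3 or arid4b∆ endoderm library 2. The part of these cell types in the claudin and Epcam values was not tested either.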

How the data were processed

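Total RNA of 12 libraries was depleted of ribosomal RNA and sequenced from directional libraries on an Illumina instrument, per the labels' protocols. The authors deposited whole-number read counts per gene, and STAR, DESeq2 and mm10 are named in the submitters' processing notes. The counter, strand setting and annotation were not given in the sources used here. Titles gave the groups and replicate numbers.

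For 26 genes a date stood in place of a count and these were left out, as was Rn45s. Totals were 10351074 to 35660108 counts per library with Rn45s, and Mir6236 and Lars2 together took 49.7% to 69.5% of the remaining counts and were kept. No molecular identifiers are named, and floors and the exact binomial intervals cover counting error alone. The intervals of log2 fold changes come from the edgeR fit and cover the spread between libraries as well. The remaining counts were tested in R 4.3.3 with edgeR 4.0.16: TMM scaling, filterByExpr at a minimum count of 10, 11635 genes, 1 quasi-likelihood fit of the 4 group means, Benjamini-Hochberg adjustment at 0.05. Replicates of a group differed by more than sampling noise (chi-square per degree of freedom 1.62 to 4.65), so each library counted as 1 sample. Alternatives were DESeq2 1.42.0, RLE scaling, no filter, Mir6236 and Lars2 left out, only the groups compared, the replicate number as a block, and each library left out.

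Gene spans and exon lengths are those of GENCODE M21 (mm10). All 10 members were named whatever their result. From each list that is not a marker list, up to 4 called genes with the smallest adjusted p were named per lineage. Cldn12, Snai3 and Zeb1 were named in addition, with their values known. The nearest patterns were the 2 closest genes of a member. Members and lists were chosen with earlier results of these data known.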

Additional observations from a re-analysis of the deposited data

How the results depend on the processing

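Of the 9 tested genes, 2 were called between genotypes in endoderm, 1 with DESeq2, 1 with RLE scaling and 1 to 2 when single libraries were left out. In mesoderm 2 were called, and, with Krt19 counted where it passed the filter of that fit, 4 without the filter and 2 to 6 when libraries were left out. Between lineages 2 were called in WT cells, 1 with DESeq2, 1 with only the groups compared and, again with Krt19, 5 without the filter and 1 to 6 when libraries were left out. In arid4b∆ cells 0 were called, and 0 to 1 when libraries were left out, and the interaction count stayed at 0. The calls of Krt8 between genotypes in both lineages, of Krt18 in mesoderm and of Cldn6 between lineages in WT held in all alternatives run. Directions turned in fits that left out 1 library, in genes that were not called. The log2 fold change then ranged, for genotype in endoderm, from −0.0897 to 0.0765 for Cldn7, −0.0341 to 0.13 for Epcam and −0.0382 to 0.22 for Ocln, and for genotype in mesoderm from −0.0869 to 0.19 for Cldn4 and −0.0096 to 0.95 for Ocln. Between lineages in WT it ranged from −0.17 to 0.17 for Cldn3, −0.11 to 0.16 for Cldn4, −0.49 to 0.0185 for Krt8 and −0.23 to 0.16 for Krt18, and in the interaction from −0.33 to 0.19 for Krt8, −0.0747 to 0.0258 for Tjp1 and −0.92 to 0.0465 for Ocln. The causes were not tested. Deviations of same-numbered libraries correlated weakly but always positively (r of 0.0132 to 0.193), and those of different numbers at r of −0.176 to 0.103. The labels do not say what same-numbered libraries share, and the main test left them unpaired. With the replicate number as a block, 2 of the tested genes were called in endoderm, 3 in mesoderm and 3 between lineages in WT. No scaling moved the median of all genes by over 0.1 (log2). Depth limits Krt19, Cldn3 and Cldn4 most.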

Other observations

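Krt7, another simple keratin and a trophoblast marker, lay under the filter on low counts and was chosen after its values were seen. It held 2, 1 and 1 counts in arid4b∆ endoderm, against 9, 11 and 5 counts in WT endoderm, which puts it 6.97-fold lower (exact 95% binomial interval 2.41 to 27.6, counting error only). In mesoderm it held 2, 3 and 5 counts in arid4b∆, against 2, 2 and 0 counts in WT.

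Ehf, an ETS factor of epithelia, was likewise chosen after its values were seen. It held 0, 1 and 0 counts in arid4b∆ endoderm, against 5, 9 and 5 counts in WT endoderm, a ratio of WT to arid4b∆ of 21.2 (interval 3.37 to 881), and 1 and 0 counts summed over arid4b∆ and WT mesoderm.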
